A study of Mus musculus with 6 samples.

Results

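Nos2, Saa3, Defb37 and Atf3, an inducible nitric oxide synthase, an acute phase protein, a beta-defensin and a stress-activated transcription factor, were followed in the ileum of mice that overexpress HIF-1α in the intestinal epithelium. They were taken by gene name from the deposited table of the ileum RNA-seq experiment, and all 4 were among its 923 genes. The overexpression mice (Hif1α LSL/LSL;VilERcre) carried a tamoxifen-activated Cre under the villin promoter, which is active in intestinal epithelial cells, together with a HIF-1α transgene that is silent until Cre removes a stop cassette. Their littermates (Hif1α LSL/LSL, flox control) carried that silent transgene without Cre and also received tamoxifen. Each group held 3 mice, by the labels 2 males (replicates 1 and 2) and 1 female (replicate 3), and the label of sex differs from the study's text, which speaks of males. Age and diet are not given for these particular mice.

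Genes of these kinds take part in innate defence or in the response to stress. Nitric oxide made from arginine by the inducible synthase is toxic to microbes and also a signal, and its gene is a known HIF-1 target in other cells. Serum amyloid A3 is the serum amyloid made largely outside the liver, in epithelia and macrophages, when bacteria or cytokines are sensed. Beta-defensins are small cationic peptides that damage microbial membranes, and Defb37 is known mainly from the mouse epididymis. ATF3 is a basic leucine zipper protein of the ATF/CREB family whose gene is switched on quickly by many kinds of stress and which restrains several inflammatory genes.

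Every row of the table had an unadjusted p under 0.05 in the authors' own test, which was adjusted over 19204 genes, so a listed gene had to differ between these same 6 libraries. Differences of listed genes therefore lean high, and a test on them is not independent evidence. Of the 923 genes, 785 passed the authors' filter on low counts and were fitted here, among them Nos2, Saa3, Defb37 and Atf3. Library totals implied by the deposited FPKM ran from 18918341 to 23730552 in overexpression and from 22542061 to 24905343 in flox libraries. The Hif1a row had 535 to 741 normalized counts in overexpression and 741 to 1185 in flox libraries. Its mean was lower in overexpression, 668 against 996, and the groups overlapped. The sources used here do not say whether transgene reads were counted in that row, and the row therefore checks no label. Levels below are normalized counts, that is fragment counts divided by the library's size factor.

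Nos2, Saa3 and Atf3 were higher and Defb37 was lower in all 3 overexpression mice than in any flox mouse. The group means differed 2.34-fold for Nos2, 3.27-fold for Saa3 and 2.42-fold for Atf3, and Defb37 was 2.63-fold lower. The groups did not overlap in any of the 4 genes, but this held for 75.5% of the 785 tested genes (40.8% higher and 34.8% lower), so it does not set them apart from the table. edgeR's quasi-likelihood test, adjusted over the 19204 genes, called 0 of the 4, against 2.8% of all tested genes. At an unadjusted p under 0.05 edgeR passed 4 of the 4, against 83.2% of all tested genes. DESeq2 on the same counts called Nos2, Atf3 and Defb37, 3 of the 4, against 9.3% of all tested genes, and limma called 0 of the 4, against 2.68%. As the RNA came from whole ileum, a larger number of cells with a transcript and more transcript per cell cannot be told apart.

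**Figure D1:**
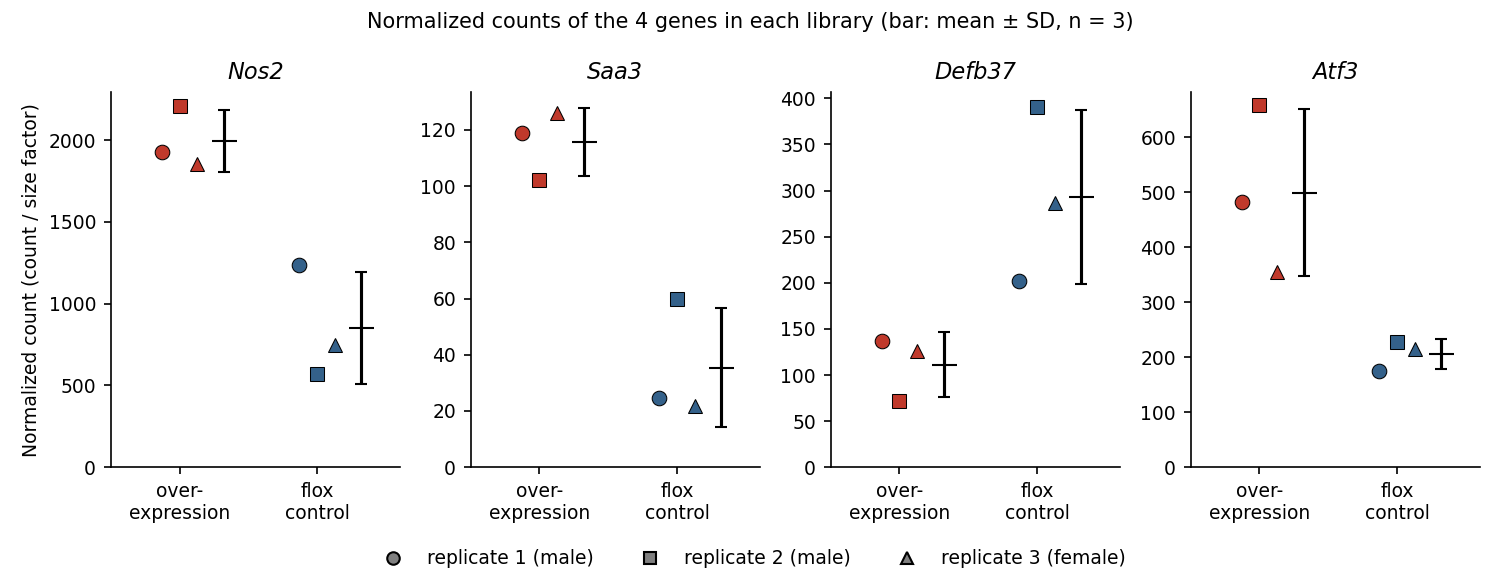
Normalized counts (vertical axis, linear and starting at 0) of Nos2, Saa3, Defb37 and Atf3 in each of 3 overexpression and 3 flox control libraries, with symbols for replicates 1 to 3 and bars for the mean ± SD. The overexpression points lie above all flox points for Nos2, Saa3 and Atf3 and below them for Defb37.

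Nos2 (ENSMUSG00000020826) lies on chromosome 11 of GRCm38, on the plus strand, from 78920787 to 78960254, with 4412 exonic bases in 29 merged exons. Its level was 1927, 2208 and 1851 normalized counts in overexpression replicates 1, 2 and 3, against 1237, 572 and 744 in flox replicates 1, 2 and 3. The overexpression mice were close to each other and the flox mice were not, with replicate 1 the highest flox mouse. Nos2 averaged 1995 ± 188 in overexpression and 851 ± 345 in flox mice (SD, n = 3 each). The log2 fold change was 1.23 ± 0.25 (SE, the standard error of the edgeR fit), with an adjusted p of 0.288 from edgeR and 0.00150 from DESeq2. Without flox replicate 1, the log2 fold change was 1.60 and the adjusted p 0.0143 from edgeR, the single one of 6 fits with 1 library left out that passed. The coefficient of variation (the SD as a percentage of the mean) was 9.44% in overexpression and 40.5% in flox mice. Among 574 tested genes whose mean reached 50 normalized counts, the median coefficient of variation was 14.1% in overexpression and 16.2% in flox mice. Of these 574 genes, 89.9% varied less than Nos2 among flox mice. Rows of the table were selected by p, which favours little spread within groups, so such ranks lean high. No window of 150 bases of its transcripts, the length of a read, occurs in a transcript of another gene, and no annotated gene overlaps it.

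The other genes of nitric oxide and arginine metabolism in the table were enzymes or partners around the synthase. Of 25 genes in this list, 4 were in the table, Nos2 included, 3 higher and 1 lower, and 0 passed edgeR in either direction after adjustment. Over all 785 tested genes, 424 were higher and 361 lower in overexpression, and 2.8% passed. The median log2 fold change of the 4 genes, with Nos2 at 1.23 among them, was 0.49, against 0.34 over all tested genes. Gch1, GTP cyclohydrolase, makes the first step of tetrahydrobiopterin, the cofactor that nitric oxide synthases need. It had 833, 789 and 494 normalized counts in overexpression replicates 1, 2 and 3 and 452, 549 and 361 in flox replicates 1, 2 and 3. The female overexpression mouse lay within the flox range, so the groups overlapped, and the log2 fold change was 0.64 ± 0.23 (SE), at an edgeR adjusted p of 1. Ddah1, which breaks down methylated arginines that inhibit nitric oxide synthases, averaged 1647 ± 176 in overexpression and 1303 ± 121 in flox mice (SD, n = 3 each), with a log2 fold change of 0.34 ± 0.14 (SE), at an edgeR adjusted p of 1. Nostrin, which binds the endothelial synthase, averaged 1413 ± 91.5 in overexpression and 1698 ± 78.9 in flox mice (SD, n = 3 each), with a log2 fold change of -0.27 ± 0.13 (SE). The other synthases Nos1 and Nos3, the arginases and Ass1 were not listed and are not analysed here.

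Saa3 (ENSMUSG00000040026) lies on chromosome 7, on the minus strand, from 46711998 to 46715700, with 2606 exonic bases in 4 merged exons. It had 119, 102 and 126 normalized counts in overexpression replicates 1, 2 and 3 and 24.7, 59.7 and 21.6 in flox replicates 1, 2 and 3. Flox replicate 2 stood above the other flox mice and below every overexpression mouse. The mean was 116 ± 12.2 in overexpression and 35.3 ± 21.2 in flox mice (SD, n = 3 each). The log2 fold change of 1.70 ± 0.44 (SE) was the largest of the 4 genes and had the largest adjusted p, 0.716 from edgeR. DESeq2 gave an adjusted p of 0.0641. Without flox replicate 2 the log2 fold change was 2.31 (adjusted p = 0.133 from edgeR). The flox mice were counted at 25, 68 and 23 fragments before scaling, and counting error alone is 20.9% of a count of 23. The coefficient of variation was 10.5% in overexpression and 59.9% in flox mice, and 97.2% of the 574 genes varied less than Saa3 among flox mice.

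Saa3 was the 1 gene of the acute phase list found in the table, out of 25. Saa1, Saa2, Saa4, Lcn2 and Hp, the other serum amyloid, lipocalin and haptoglobin genes of the list, were not listed and are not analysed here. None of its 150-base windows occurs in a transcript of another gene. At 50 bases, 4.15% of its windows do. The promoters of Saa3 and Atf3 are shown, the pair of the 4 genes found in the RefSeq promoter table used here. The 300 bases run from 250 before to 50 after the RefSeq start (chr7:46715627-46715926, minus strand, GRCm38.p6), in capitals the overlapping TATATA matches:
Saa3 promoter: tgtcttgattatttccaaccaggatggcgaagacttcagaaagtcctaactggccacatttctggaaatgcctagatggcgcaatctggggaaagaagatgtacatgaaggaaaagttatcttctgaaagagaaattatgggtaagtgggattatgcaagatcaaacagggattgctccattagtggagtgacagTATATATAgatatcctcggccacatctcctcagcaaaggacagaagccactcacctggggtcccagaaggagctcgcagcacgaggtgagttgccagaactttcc
The HIF core letters ACGTG and GCGTG were searched on both strands, as were the CRE letters TGACGTCA and TTACGTCA and TATAAA and TATATA, a choice made after the promoters had been seen. The Saa3 window held TATATA at 2 overlapping positions, 55 and 53 bases before the start, and none of the other letters. TATATA occurs in 5.67% and TATAAA in 13.6% of 32851 promoters of this length.

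Defb37 (ENSMUSG00000053695) lies on chromosome 8, on the minus strand, from 18986233 to 18991055, and is short, with 352 exonic bases in 2 exons. Its coding sequence is shown because the spacing of its 6 cysteine codons, which differs between beta- and alpha-defensins, tells which kind of peptide this transcript encodes (GENCODE M21, chr8:18986314-18990973, minus strand, GRCm38, the intron left out). Cysteine codons are in capitals:
Defb37 coding sequence: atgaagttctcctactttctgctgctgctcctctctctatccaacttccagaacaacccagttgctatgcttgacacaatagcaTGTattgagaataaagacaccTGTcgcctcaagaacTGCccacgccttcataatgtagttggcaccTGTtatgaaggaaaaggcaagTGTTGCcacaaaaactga
The 62 codons before the stop hold all 6 cysteines in the last 40, with 6, 4, 9, 6 and 0 other codons between successive ones. None of its 150-base or 50-base windows occurs in another gene's transcript, so its reads can be told from those of other defensins.

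Defb37 had 137, 71.3 and 126 normalized counts in overexpression replicates 1, 2 and 3 and 202, 391 and 286 in flox replicates 1, 2 and 3. It is the single gene of the 4 that was lower in overexpression mice, and the nearest mice of the groups, overexpression replicate 1 and flox replicate 1, differed 1.48-fold. The mean was 111 ± 35.0 in overexpression and 293 ± 94.6 in flox mice (SD, n = 3 each). The SD was 31.5% of the mean in overexpression and 32.3% in flox mice. Of the 574 genes, 88.0% varied less than Defb37 among overexpression mice and 84.3% among flox mice. The log2 fold change was -1.40 ± 0.32 (SE), with an adjusted p of 0.493 from edgeR and 0.0213 from DESeq2. Without flox replicate 2, the highest mouse, it was -1.13, and without overexpression replicate 2, the lowest, it was -1.16, with an adjusted p of 1 from edgeR in both. Defb37 is best known from the epididymis, and 0 of 6 epididymal marker genes were in the table. As the table holds only genes selected by p, this does not show whether their transcripts were present, and they are not analysed here.

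Most of the defensin genes in the table had lower means in overexpression mice, and Defa31, Defa32 and Defa37 have near-identical copies outside the table. Of 81 defensin genes, 5 were in the table, 1 higher and 4 lower, and 0 passed edgeR in either direction after adjustment. All 785 tested genes together were 424 higher and 361 lower, with 2.8% passing. The median log2 fold change of the 5 defensins was -1.40, which is the value of Defb37 itself, against 0.34 over all tested genes. The other 4 were alpha-defensins, the bactericidal peptides of Paneth cells. Defa32 was the most abundant of the 5, with 4383, 10724 and 13880 normalized counts in overexpression replicates 1, 2 and 3 and 25151, 21954 and 47114 in flox replicates 1, 2 and 3. Its groups did not overlap, and the log2 fold change was -1.70 ± 0.40 (SE), at an edgeR adjusted p of 0.509. Of its 150-base windows 99.6% occur in transcripts of Defa20, Defa33 or Defa2, so how reads were split among these genes is uncertain. Defa31 and Defa37 shared 100% of theirs with other alpha-defensins, and Defa26 shared 0% at 150 and 40.2% at 50 bases. In Defa31 flox replicate 2 stood at 4578 normalized counts, and flox replicates 1 and 3 at 139 and 353. The overexpression mice had 179 to 240, so the groups overlapped. Defa37 averaged 3327 ± 546 in overexpression and 2356 ± 478 in flox mice, and Defa26 averaged 1603 ± 187 in overexpression and 1993 ± 337 in flox mice (SD, n = 3 each), with overlap in both. The Paneth cell markers Lyz1, Mmp7, Ang4, Itln1 and Pla2g2a were not listed, nor was any other of the 7 in that list, so the share of Paneth cells was not compared.

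Atf3 (ENSMUSG00000026628) lies on chromosome 1, on the minus strand, from 191170296 to 191218039, with 2154 exonic bases. Gm24748, a small RNA gene on the other strand, lies within it and shares 0 exonic bases with it. Atf3 had 483, 658 and 356 normalized counts in overexpression replicates 1, 2 and 3 and 176, 228 and 215 in flox replicates 1, 2 and 3. Here the flox mice were close to each other and the overexpression mice spread 1.85-fold from lowest to highest, the female being the lowest. Atf3 averaged 499 ± 152 in overexpression and 206 ± 27.4 in flox mice (SD, n = 3 each). The log2 fold change was 1.27 ± 0.24 (SE), with an adjusted p of 0.237 from edgeR and 0.00150 from DESeq2. Over the 6 fits that each left out 1 library it ran from 1.02 without overexpression replicate 2 to 1.47 without overexpression replicate 3, and the adjusted p from 0.0760 to 0.823. The coefficient of variation was 30.4% in overexpression and 13.3% in flox mice, the reverse of the order in Nos2 and Saa3. Of the 574 genes, 86.6% varied less than Atf3 among overexpression mice and 39.7% among flox mice.

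The promoter window of Atf3 (chr1:191183284-191183583, minus strand, GRCm38.p6, RefSeq) has its start at 191183333, 34706 bases inside the outer end of the annotated gene. Matches to the searched letters are in capitals:
Atf3 promoter: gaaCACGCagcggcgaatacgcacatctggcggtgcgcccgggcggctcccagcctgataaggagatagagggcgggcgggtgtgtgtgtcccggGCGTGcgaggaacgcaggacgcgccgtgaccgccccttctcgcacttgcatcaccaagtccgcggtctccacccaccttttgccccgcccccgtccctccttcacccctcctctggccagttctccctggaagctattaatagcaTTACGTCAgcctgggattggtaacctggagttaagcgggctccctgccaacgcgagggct
The window held GCGTG 247 bases before the start on the opposite strand (read as CACGC) and 155 bases before it on the gene's strand, and TTACGTCA 10 bases before it. None of the other searched letters was in it. GCGTG occurs in 32.4% and ACGTG in 19.6% of the 32851 promoters, and 43.8% hold at least one of them. TTACGTCA occurs in 0.499% and TGACGTCA in 1.79%. No match overlapped another in this window. The window was 64.7% G and C, against 46% for Saa3 and a median of 52.7% over all promoters.

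Of 48 genes of the ATF, AP-1 and integrated stress list, 2 were in the table, Atf3 and Fos, both higher and neither passing edgeR after adjustment. The 785 tested genes held 424 higher and 361 lower, and 2.8% of them passed. Fos, an immediate early gene whose product forms AP-1 with Jun proteins, had 1285, 1452 and 1199 normalized counts in overexpression replicates 1, 2 and 3 and 1040, 809 and 689 in flox replicates 1, 2 and 3. The groups did not overlap, and the log2 fold change was 0.63 ± 0.17 (SE), at an edgeR adjusted p of 0.803. Atf4, Ddit3, Trib3, Chac1 and Asns, genes of the integrated stress response, were not listed and are not analysed here.

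Of 46 NF-κB, cytokine and chemokine genes, 5 were in the table and all 5 were higher, with 0 passing edgeR after adjustment. Among all 785 tested genes, 424 were higher and 361 lower, and 2.8% passed. The 5 listed genes had a median log2 fold change of 0.68, against 0.34 over all tested genes. Tnf, a cytokine that drives acute phase genes, had 67.3, 39.4 and 18.7 normalized counts in overexpression replicates 1, 2 and 3 and 13.8, 3.51 and 10.4 in flox replicates 1, 2 and 3. The groups did not overlap, though the female overexpression mouse was close to flox replicate 1, and the log2 fold change was 2.18 ± 0.71 (SE), at an edgeR adjusted p of 1. Ccl8, a chemokine for monocytes, averaged 140 ± 34.6 in overexpression and 75.7 ± 37.1 in flox mice (SD, n = 3 each). Nfkbia, the inhibitor that NF-κB induces, averaged 2190 ± 336 in overexpression and 1724 ± 349 in flox mice (SD, n = 3 each). Il1rn, the interleukin-1 receptor antagonist, and Ccl28, an epithelial chemokine, had log2 fold changes of 0.68 and 0.45, and in Nfkbia, Il1rn and Ccl28 the groups overlapped. Il1b, Il6, Il22, Il17a, Socs3 and Stat3 were not listed.

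In a list of 43 other antimicrobial and barrier genes, 4 were in the table, 1 higher and 3 lower, again with 0 passing edgeR after adjustment. The whole set of 785 tested genes had 424 higher and 361 lower, with 2.8% passing. The lower genes of this list include S100g, a calcium-binding protein of enterocytes and not an antimicrobial gene, with a log2 fold change of -2.61. With S100g, the median log2 fold change of the 4 was -0.54, against 0.34 over all tested genes. Reg3a, an antibacterial lectin, averaged 1138 ± 293 in overexpression and 1701 ± 499 in flox mice, and Ang, a ribonuclease of the angiogenin family that shares 14.5% of its 50-base windows with Rnase4 or Ang2, averaged 357 ± 40.6 in overexpression and 503 ± 60.5 in flox mice (SD, n = 3 each). The groups overlapped in Reg3a and not in Ang. Pigr, the receptor that carries IgA to the lumen, averaged 47464 ± 1620 in overexpression and 35364 ± 9348 in flox mice and overlapped as well. Of 25 oxidant defence genes, among them Duox2 and Nox1, 0 were in the table. Across these lists, 17 genes other than Nos2, Saa3, Defb37 and Atf3 were tested, S100g included. They were 10 higher and 7 lower, against 424 higher and 361 lower of all 785 tested genes. Of the 17, 0 were called by edgeR, DESeq2 or limma, against 2.8%, 9.3% and 2.68% of all tested genes. At an unadjusted p under 0.05 edgeR passed 10 of the 17, against 83.2% of all tested genes.

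**Figure D2:**
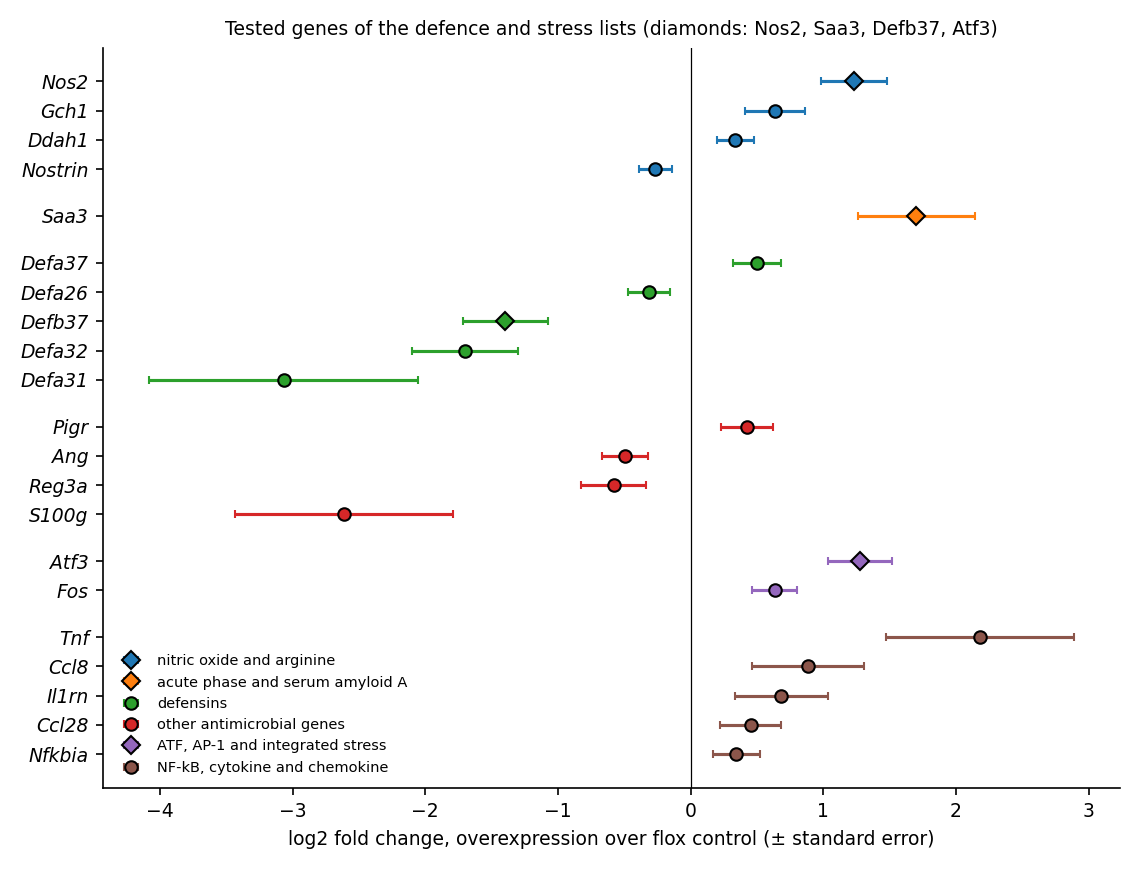
Log2 fold change of overexpression over flox control (horizontal axis, points with standard error from edgeR) of the 21 tested genes of the defence and stress lists, coloured by list, with diamonds for Nos2, Saa3, Defb37 and Atf3. The 5 cytokine and NF-κB genes lie right of 0, and 4 of the 5 defensins lie left of it.

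Per length, the order of the 4 transcripts differed between the groups. In overexpression mice Nos2 was highest, at 19.0 to 22.6 FPKM (fragments scaled to gene length and library size), followed by Defb37 at 9.14 to 17.5, Atf3 at 7.48 to 13.8 and Saa3 at 1.77 to 2.19 FPKM. The ranges of Defb37 and Atf3 overlapped, so these neighbours were not apart, while the other neighbours were. In flox mice Defb37 was highest, at 25.8 to 50.8 FPKM, followed by Nos2 at 5.92 to 12.6, Atf3 at 3.67 to 4.85 and Saa3 at 0.379 to 1.05 FPKM, and no neighbours overlapped. These levels rest on deposited gene lengths, and that of Defb37, 352 bases, is little longer than a pair of reads.

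**Figure D3:**
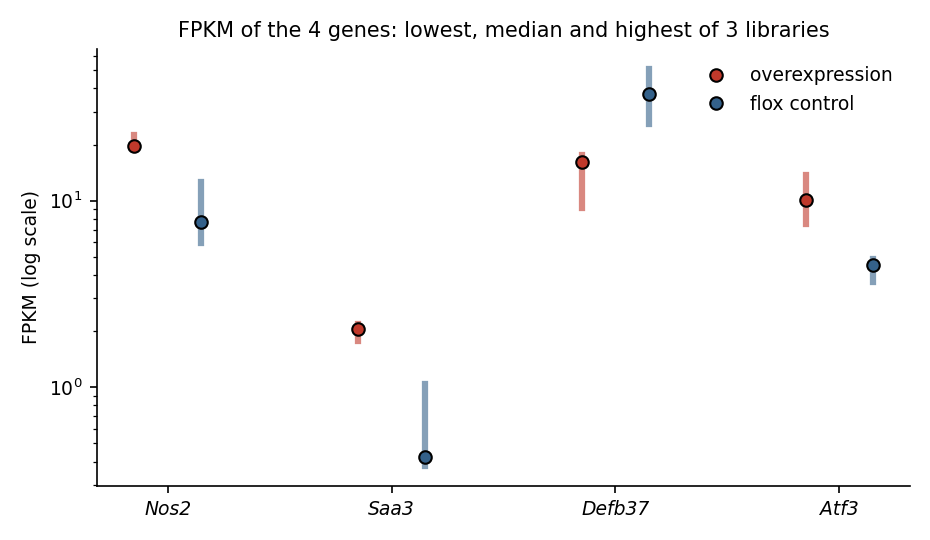
FPKM on a log axis for Nos2, Saa3, Defb37 and Atf3 in overexpression (left of each pair) and flox control mice, with the line from the lowest to the highest of 3 libraries and the point at the median. Nos2 ranks first in overexpression mice, at a median of 19.7 FPKM, and Defb37 ranks first in flox mice, at 37.1 FPKM.

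The order of the mice within a group differed between the 4 genes. Overexpression replicate 2 was the highest overexpression mouse for Nos2 and Atf3 and the lowest for Saa3 and Defb37. Flox replicate 2 was the highest flox mouse for Saa3, Defb37 and Atf3 and the lowest for Nos2. Flox replicate 1 was the highest for Nos2 and the lowest for Defb37 and Atf3.

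The direction was the same in males and in the female pair for all 4 genes, which groups without overlap fix in advance. The ratio of overexpression to flox in males, 2 against 2, was 2.29 for Nos2, 2.62 for Saa3, 0.350 for Defb37 and 2.82 for Atf3. In the female pair it was 2.49 for Nos2, 5.82 for Saa3, 0.440 for Defb37 and 1.66 for Atf3. The log2 effect in females minus that in males was 1.15 (standard error 0.94) for Saa3 and -0.77 (standard error 0.44) for Atf3, and the adjusted p of the interaction from edgeR was 1 for each of the 4 genes. With 1 female per group, a difference between the sexes was not detectable at this number of mice.

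**Figure D4:**
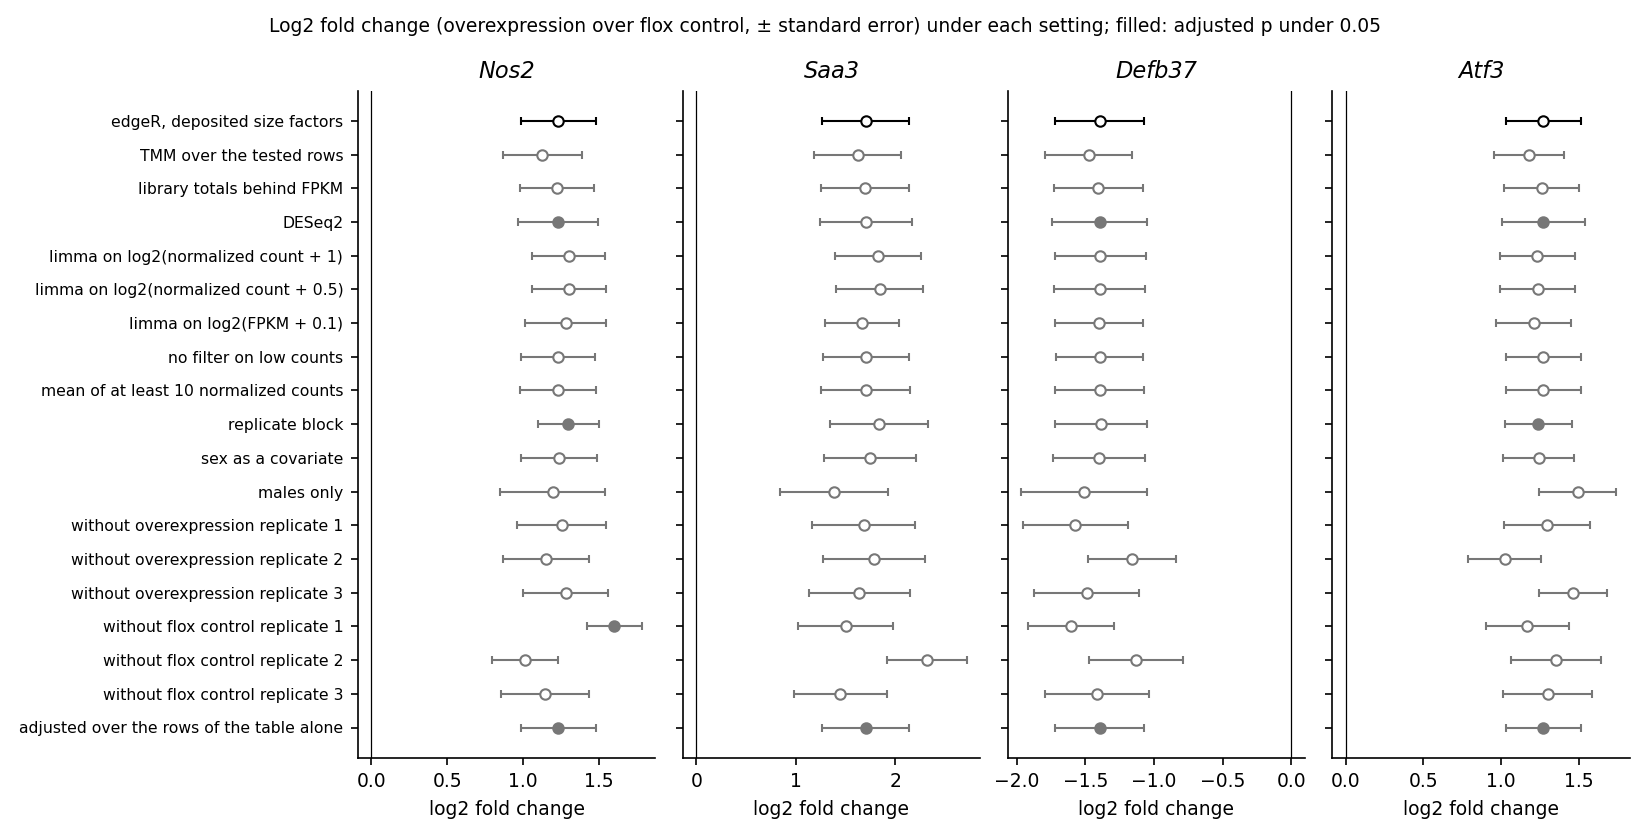
Log2 fold change of overexpression over flox control (horizontal axis, ± standard error) of Nos2, Saa3, Defb37 and Atf3 under the edgeR fit and 18 alternatives, one per line, with filled points where the adjusted p was under 0.05. The sign is the same on every line, which groups without overlap fix in advance where libraries are left out. Nos2 runs from 1.01 to 1.60, Saa3 from 1.38 to 2.31, and Defb37 from -1.60 to -1.13. Atf3 is lowest at 1.02 and highest in males only.

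The genes whose profile over the 6 libraries was most like each of the 4 were found by the root-mean-square difference of centred log2(normalized count + 1) values among 600 tested genes. Profiles are dominated by the group difference through which all genes entered the table. For Nos2 they were Pdk1, the kinase that inhibits pyruvate dehydrogenase, at 0.18, Slc39a7, a zinc transporter, at 0.21 and Ifit1bl1, an interferon-induced gene, at 0.22, against a median of 0.79. For Saa3 they were Egln3, a HIF prolyl hydroxylase, at 0.31, Fam162a, a hypoxia-induced mitochondrial protein, at 0.32 and Myl7, a myosin light chain, at 0.36, against a median of 0.95. Defb37 was nearest to Scgb3a1, a secretoglobin, at 0.20, Zfp85, a zinc finger gene, at 0.21 and the homeobox gene Msx1 at 0.34, against a median of 0.98. Atf3 was nearest to Fhdc1, a formin-related gene, at 0.23, Nudt11, an inositol pyrophosphate hydrolase, at 0.23 and Slc2a1, the glucose transporter GLUT1, at 0.25, against a median of 0.72. Among the 4 genes themselves, Nos2 and Atf3 were closest, at 0.48, and Saa3 and Defb37 farthest apart, at 1.65.

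Nos2 and Saa3 are also made by immune cells, so cell markers were looked up in the table. Of the macrophage markers 0 of 7 and of the neutrophil markers 0 of 6 were listed, so neither cell type was compared here. Of the T and NK cell markers 1 of 8 was listed, Klrb1, with 70.2 to 163 normalized counts in overexpression and 16.8 to 39.5 in flox mice. Klrb1 did not overlap between the groups and was at 0 in no library, and its part in the results for Nos2, Saa3, Defb37 and Atf3 was not tested. Pou2f3, 1 of 4 tuft cell markers, had 19.6 to 38.5 in overexpression and 51.8 to 75.3 in flox mice. Dcn, 1 of 4 fibroblast markers, had 4336 to 4748 normalized counts in overexpression and 5119 to 6079 in flox mice, and Wt1, 1 of 3 mesothelial markers, had 7.48 to 25.6 in overexpression and 29.2 to 51.8 in flox mice. Kdr, 1 of 3 endothelial markers, had 517 to 966 in overexpression and 403 to 544 in flox mice and overlapped. The part of these markers in the results was not tested either. Fabp6, the bile acid binding protein that marks ileal enterocytes, had 36234 to 66850 normalized counts in overexpression and 33689 to 44735 in flox mice, so this ileal marker was present in all 6 libraries.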

How the data were processed

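Ileum RNA of 3 overexpression and 3 flox control mice was analysed. Paired reads were aligned by the authors with HISAT2 (version 2.0.5, genome GRCm38). The deposited counts are featureCounts fragments per gene, in whole numbers. The deposited signal is the count divided by a size factor for each library, from 0.858 to 1.14, and FPKM were computed by the authors. The deposited p-values served only to find how rows were selected, which rows passed the authors' filter and over how many genes they were adjusted, 19204, the highest of the numbers implied by the 50 smallest p-values and their median. The deposited log2 fold changes were not used. The sources used here do not state whether counting was stranded.

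Groups were compared with the quasi-likelihood test of edgeR (version 4.0.16, R 4.3.3) on the counts of 785 genes, scaled by the deposited size factors, without covariates, with Benjamini-Hochberg adjustment over 19204 genes and a threshold of 0.05. The 138 rows whose deposited adjusted p was set to 1 by the authors' filter, with a mean of at most 4.16 normalized counts, were left out. Adjustment over all 19204 and the size factors in place of TMM were needed because the table holds genes selected by p. DESeq2 (version 1.42.0) and limma (version 3.58.1) were alternatives, as were other scalings, filters, pseudocounts, a replicate block, sex, males only and each library left out. With 3 against 3, no exact permutation p is below 0.1. The fits were tested on simulated data. The genes and lists were chosen with earlier results of these data known. Named genes are Nos2, Saa3, Defb37 and Atf3, listed members of the fixed lists, and the 3 nearest profiles among genes whose mean reached 10 normalized counts, predicted genes and pseudogenes left out. Of the 4 promoters, RefSeq (GRCm38.p6) gave those of Saa3 and Atf3. Shared windows and overlaps come from GENCODE M21, whose positions of the 4 genes equal the deposited ones.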

Additional observations from a re-analysis of the deposited data

How the results depend on the processing

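Nos2, Saa3, Defb37 and Atf3 kept their direction in 72 of 72 combinations of gene and alternative, and their side of the threshold in 62. The groups did not overlap in any of the 4 genes, so leaving out libraries could not reverse a direction. The unchanged direction is therefore not independent evidence. DESeq2 called Nos2 (1.23, adjusted p = 0.00150), Atf3 (1.27, adjusted p = 0.00150) and Defb37 (-1.40, adjusted p = 0.0213) and 73 genes in all, against 22 with edgeR. With the replicate block, edgeR called Nos2 (1.30, adjusted p = 0.00908) and Atf3 (1.24, adjusted p = 0.0213), not Saa3 or Defb37, and 41 genes in all. The number was not taken to pair the mice. Deviations of same-numbered libraries correlated at 0.026 to 0.062 over 785 genes, under a cutoff of 0.1 used for this check. Still, 6 of 6 libraries correlated best with their own number. Replicate 3 is the female in both groups, so the block also carries sex. Adjusted over the 785 rows alone, which is too lenient for genes selected by p, edgeR called all 4, with unaltered log2 fold changes of 1.23 for Nos2, 1.70 for Saa3, -1.40 for Defb37 and 1.27 for Atf3, and 325 genes in all. In males only, 2 against 2, it called 1 gene and none of the 4 (adjusted p = 1 for Nos2, Saa3 and Defb37 and 0.738 for Atf3, all with the same sign). Over the 6 fits that each left out 1 library, edgeR called 4 to 13 genes, and the log2 fold change ran from 1.01 to 1.60 for Nos2, from 1.45 to 2.31 for Saa3, from -1.60 to -1.13 for Defb37 and from 1.02 to 1.47 for Atf3. These fits hold 5 libraries in place of 6. Of the 13 list genes with a higher and the 8 with a lower fitted mean, 7 and 4 had groups that did not overlap, against 75.5% of all tested genes. With FPKM in place of normalized counts, a choice made after seeing the data, 589 genes had groups apart, against 593. Depth limits Saa3 most, whose lowest library held 23 fragments. The cause of these differences was not tested.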

Other observations

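A pair of genes from the gene lists above, singled out after their values were seen, had 1 flox library far above the other mice. Defa31, an alpha-defensin, had 179, 187 and 240 normalized counts in overexpression replicates 1, 2 and 3 and 139, 4578 and 353 in flox replicates 1, 2 and 3, with a log2 fold change of -3.07 ± 1.01 (SE), at an edgeR adjusted p of 1. Flox replicate 2, the mouse with the high value, was also the highest flox mouse for Defb37 and Saa3 and the lowest for Defa32. S100g, a calcium-binding protein of enterocytes, had 92.6, 117 and 45.5 in overexpression replicates 1, 2 and 3 and 1214, 294 and 63.0 in flox replicates 1, 2 and 3, with a log2 fold change of -2.61 ± 0.82 (SE), at an edgeR adjusted p of 1. In both genes the groups overlapped.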
